A study of Homo sapiens with 2 samples.

Results

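Many human protein-coding genes also give RNAs that RefSeq lists as non-coding (identifiers starting NR_) beside their coding isoforms (NM_). Members here were the NR_ isoforms of genes that also have at least 1 NM_ isoform in the same table and that had at least 50 estimated counts in the control library. Of 70866 transcripts, 5671 were NR_ isoforms of such genes, and 1074 of these, in 868 genes, passed the minimum. The control counts thus chose the members, and every comparison of the share below starts from the library that chose them, so it is given as a description with no test. The 3 members just above the minimum were in ENPP3 (50 counts), HMBOX1 (50.1) and ARIH2 (50.1), and the 3 isoforms just below it were in INTS14 (49.8), GTF3C4 (49.8) and ARL6IP6 (49.8). A gene entered the comparison of shares if all of its isoforms together had at least 100 estimated counts in the tRF-3004b library. That left 420 genes with 544 member isoforms, called scored genes below. The other 448 member genes, 5 of them with 0 counts in the tRF-3004b library, were too shallow there.

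An isoform receives the NR_ label when it is spliced so that no reliable protein can be predicted from it. Common forms are a poison exon, which is a cassette exon with an early stop codon, a skipped exon that shifts the reading frame, and a retained intron. RNAs with an early stop codon are degraded by nonsense-mediated decay (NMD), whereas RNAs that keep introns are often held in the nucleus. Genes of the splicing machinery, above all the SR proteins (splicing factors rich in arginine and serine) and the CLK kinases that phosphorylate them, are known to limit their own level by making such isoforms.

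The study used HEK293T, a line of human embryonic kidney origin that carries the SV40 large T antigen. Cells of one group received a non-targeting RNA (GL2) and those of the other a mimetic of tRF-3004b, a fragment from the 3' end of a tRNA, each given in the labels as 1 strand with a 5' phosphate. In both groups the dose was 500 nM, delivered by reverse transfection with Lipofectamine RNAiMax, and cells were taken at 120 h. Polyadenylated RNA was sequenced from 1 library per group, so no difference below has a replicate check and no p-value is given. The RNAs are shown because they are the only stated difference between the groups, with bases 2 to 8 of the fragment, the seed if it acts like a microRNA, in capitals.
tRF-3004b: uCAAAUCUcgguggaaccucca
control: cguacgcggaauacuucgauu

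Estimated counts summed to 19609933 in the control and to 1809193, 10.8-fold fewer, in the tRF-3004b library. Of the HEK293T-associated genes, LIN28B and VIM were abundant in both libraries, PAX2 had 19 and 2 counts, and LHX1 had 61 counts in the control and 0 in the tRF-3004b library. Marker lists of other cell types were higher in the tRF-3004b library. Summed fibroblast markers, 9 of 9 with counts in both, stood at 36.4 CPM (counts scaled to library size) in the control and 118 in the tRF-3004b library. Epithelial markers stood at 10.9 and 42.0 CPM (7 and 6 of 9 with counts), with KRT5 and UPK3A at 0 in both. Blood cell markers stood at 4.52 and 53.6 CPM (8 of 9 in each), with CD3E at 0 in the control. Their part in the results below was not tested. In bulk RNA, fewer cells with an isoform and less of the isoform per cell cannot be told apart.

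Some members could be matched to a gene structure. A member counted as matched when it and an NM_ isoform of the same gene each had a GENCODE 29 partner, and the partners' internal exon differences added up to exactly the difference in RefSeq length. This held for 156 members. Of the 683 members with any GENCODE partner, 344 had one of the class protein coding. The stretches that set 3 of the most informative members apart from their coding partner are printed here, from GRCh38 with GENCODE 29 exons, on the strand of the gene. They are the ends of both introns kept by the CLK1 isoform NR_027856 (splice site dinucleotides in capitals), the cassette exon of SRSF6 up to its stop codon (in capitals), and the end of the 5' extension of a WSB1 exon (the splice acceptor used by the coding isoform in capitals).
CLK1 longer intron, start, chr2:200861118-200861237 (-): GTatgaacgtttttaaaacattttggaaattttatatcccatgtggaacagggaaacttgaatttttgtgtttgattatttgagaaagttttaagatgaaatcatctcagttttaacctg
CLK1 longer intron, end, chr2:200860216-200860335 (-): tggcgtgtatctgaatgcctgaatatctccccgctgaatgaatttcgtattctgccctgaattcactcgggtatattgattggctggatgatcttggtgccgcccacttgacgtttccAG
CLK1 shorter intron, start, chr2:200860005-200860124 (-): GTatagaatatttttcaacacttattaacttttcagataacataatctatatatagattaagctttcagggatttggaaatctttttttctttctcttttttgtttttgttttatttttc
CLK1 shorter intron, end, chr2:200859747-200859866 (-): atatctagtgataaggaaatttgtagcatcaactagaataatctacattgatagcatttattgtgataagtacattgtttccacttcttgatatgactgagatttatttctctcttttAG
SRSF6 cassette exon to stop, chr20:43459153-43459304 (+): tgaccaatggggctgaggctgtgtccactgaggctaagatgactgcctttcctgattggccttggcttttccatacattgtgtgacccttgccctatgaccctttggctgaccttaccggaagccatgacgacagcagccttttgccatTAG
WSB1 extension, end, chr17:27308980-27309099 (+): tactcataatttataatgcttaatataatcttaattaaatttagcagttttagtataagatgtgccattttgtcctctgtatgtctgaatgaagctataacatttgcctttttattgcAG

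The CLK1 isoform keeps an intron of 1022 bases (chr2:200860216-200861237) and one of 378 bases (chr2:200859747-200860124), which together make the 1400 bases by which NR_027856 is longer than NM_004071. The SRSF6 member NR_034009 carries a cassette exon of 268 bases (chr20:43459153-43459420). Its GENCODE partner, of the class nonsense-mediated decay, has its annotated stop codon, the printed TAG, inside that exon. The WSB1 member NR_145520 extends an internal exon by 1356 bases (chr17:27307744-27309099), and its partner has the class retained intron. In DMTF1, a cyclin D-binding transcription factor, the members NR_024549 and NR_024550 extend an internal exon by 211 and 172 bases (chr7:87182017-87182227 and chr7:87182056-87182227).

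**Figure D1:**
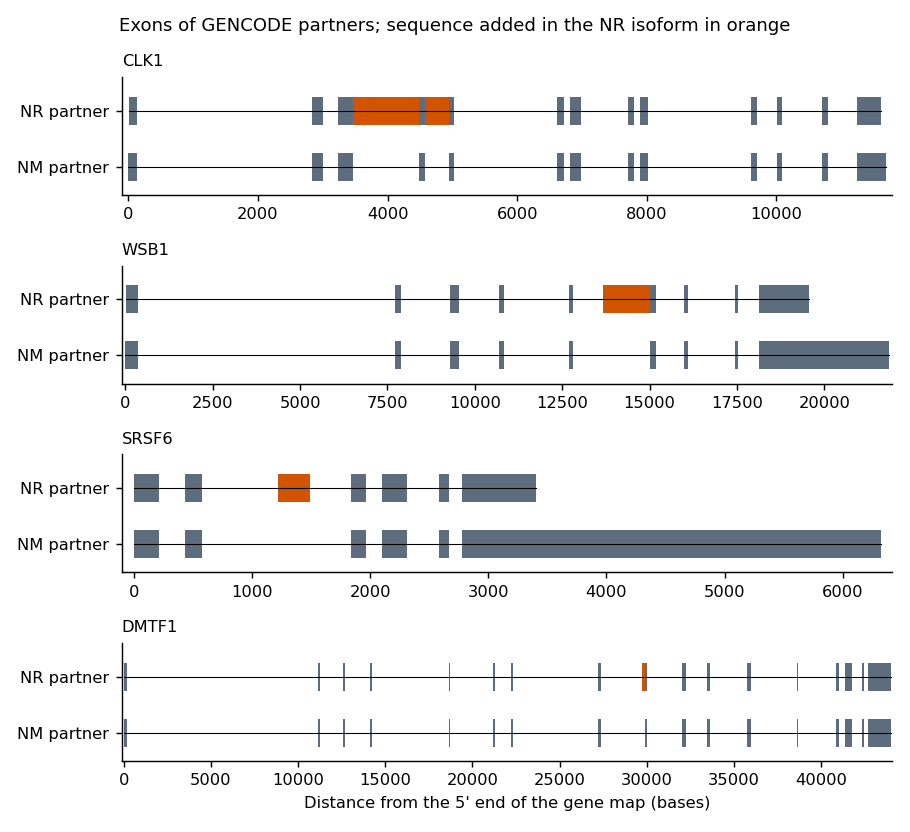
Exons of the GENCODE partners of an NR_ and an NM_ isoform for CLK1, WSB1, SRSF6 and DMTF1, by distance in bases from the 5' end of the map; grey boxes are exons and orange boxes are sequence present only in the NR_ partner. The orange sequence is 1400 bases in CLK1, 1356 in WSB1, 268 in SRSF6 and 172 in DMTF1, and the outer ends of the partners also differ.

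For each gene the NR_ share is the summed TPM (transcript abundance per length) of its NR_ isoforms, in percent of the TPM of all its isoforms. Across the 420 scored genes the median NR_ share was 11.9% in the control and 6.196% in the tRF-3004b library, and the median difference was -2.86 percentage points. The share was lower in the tRF-3004b library in 279 genes and higher in 141. It moved by 5 points or less in 165 genes, was lower by more than 10 points in 95 and higher by more than 10 points in 61. The NR_ isoforms were most of a gene's TPM in 68 genes of the control, in 77 of the tRF-3004b library and in 57 of both. Across genes, the shares of the 2 libraries had a Pearson's r of 0.85 and a Spearman's rho of 0.69, over genes that share both libraries and are not independent replicates.

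The odds of NR_ to NM_ isoforms were at least 2-fold lower in 210 of the 420 genes (50%) and at least 2-fold higher in 78 (18.6%). A change of 2-fold was common for any isoform. Among 7064 NM_ and NR_ transcripts with the same minimum counts, in genes with several transcripts, the odds within the gene were lower by that much in 45.1% and higher in 24.6%. Among the NM_ transcripts alone these shares were 43.9% and 25.4%, and among the 544 NR_ transcripts 58.6% and 15.1%. NR_ transcripts were thus past 2-fold lower in a larger share than NM_ transcripts, a difference with no replicate check. With the whole 95% interval for counting error beyond 2-fold, 144 genes were lower (34.3%) and 47 higher (11.2%), against 30.3% and 15.9% of all transcripts. By that stricter measure 38.8% of the NR_ transcripts were lower and 9.74% higher, and 29.6% and 16.4% of the NM_ transcripts. That interval is the exact conditional interval of the odds ratio on rounded counts. It does not cover the way reads are divided among isoforms of the same gene, nor the difference between cultures.

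**Figure D2:**
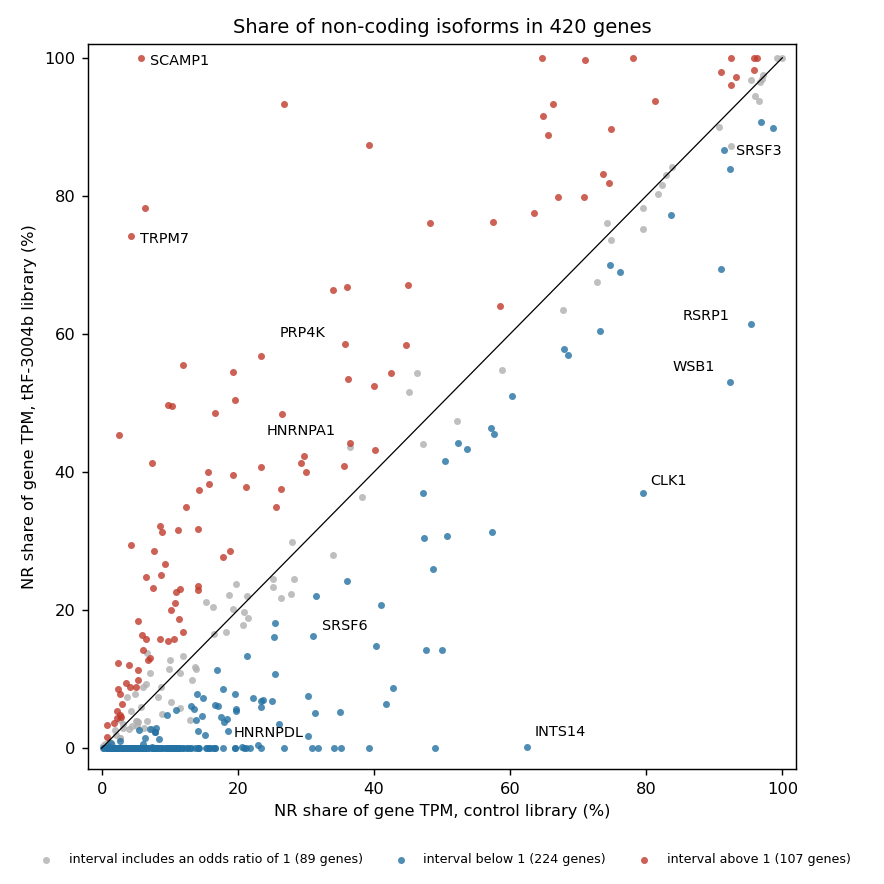
NR_ share of gene TPM in the control library (horizontal axis, %) against the tRF-3004b library (vertical axis, %), 1 point per scored gene, coloured by whether the 95% counting interval of the odds ratio lies below 1 (224 genes), above 1 (107) or includes 1 (89). The line marks equal shares, and many points lie on the horizontal axis because the NR_ isoforms had under 0.5 counts in the tRF-3004b library (145 genes).

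Much of the downward side was made of isoforms listed at 0. In 145 of the 210 lower genes the NR_ isoforms together had under 0.5 counts in the tRF-3004b library, and in 9 scored genes the NM_ isoforms had. With a floor of 3 counts in place of a 0, 192 genes were lower and 76 higher, and with 5 counts added instead of 0.5, 158 were lower and 85 higher. With members chosen on the mean CPM of both libraries instead of the control counts, 158 of 412 genes (38.3%) were lower and 117 (28.4%) higher. Of all 1074 members, 494 (46.0%) had under 0.5 counts in the tRF-3004b library, compared with 4185 of 13736 NM_ isoforms of the same minimum (30.5%). The gap was set beside depth. Among isoforms with 50 to 99 control counts, 60.2% of members and 54.5% of NM_ isoforms were at about 0. Among those with 200 to under 500, where the depth ratio alone would leave at least 18.5 counts, it was 39.6% and 30.0%, and with 1000 or more it was 6.25% and 4.87%. The members stood above the NM_ isoforms in each of the 5 count classes, but not in each class of control share. In genes with the 100-count minimum, 63.4% of NR_ and 51.6% of NM_ transcripts with under 10% of their gene were at about 0. From 10% to 25% it was 43.6% and 32.8%. From 25% to 50% it was 14.5% and 16.5%, from 50% to 75% 3.23% and 6.26%, and from 75% 0 and 1.96%. Count and share were not tested apart.

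**Figure D3:**
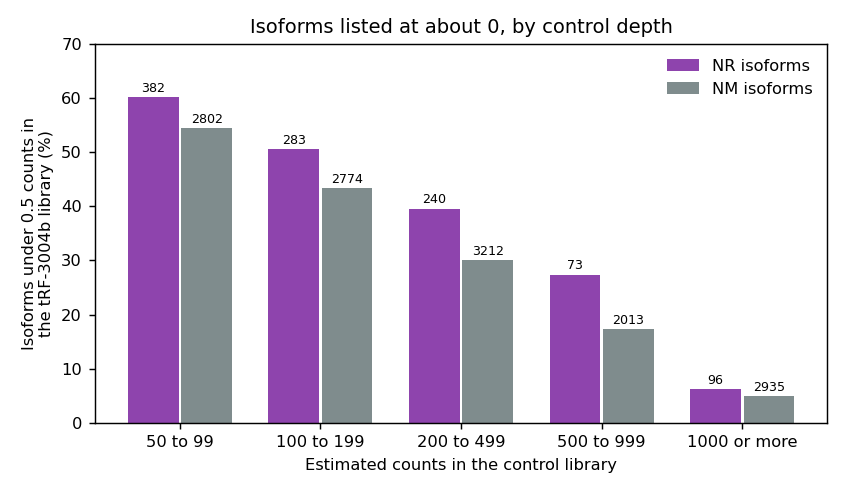
Percent of isoforms with under 0.5 estimated counts in the tRF-3004b library, by class of estimated counts in the control library, for members (NR_, purple) and NM_ isoforms (grey); the number of isoforms stands over each bar. The bars go from 60.2% and 54.5% in the lowest class to 6.25% and 4.87% in the highest, and the NR_ bar is the taller in every class. The classes do not account for the share an isoform held in the control.

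The share an isoform held in the control library was also set beside its difference. Isoforms with under 10% of their gene in the control were at least 2-fold lower in 70.1% of 298 NR_ and 58.7% of 2026 NM_ transcripts. From 10% to 25% it was 59.4% of 133 NR_ and 44.9% of 1168 NM_ transcripts. From 25% to 50% it was 36.4% of 55 NR_ and 37.4% of 942 NM_ transcripts. The values were 16.1% of 31 and 30.8% of 751 from 50% to 75%, and 22.2% of 27 and 34.7% of 1633 from 75%. In genes where the NR_ share was at least 25% in the control, 35 of 127 were lower past 2-fold, 25 were higher and 67 lay between. The median difference in these genes was -1.84 points.

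The classes of length differed as well. Where the leading NR_ isoform was within 50 bases of the leading NM_ isoform, the odds were at least 2-fold lower in 35 of 58 genes and higher in 9, with a median difference of -5.57 points. Where it was shorter by at least 200 but under 1000 bases, 15 of 57 genes were lower and 16 higher, and the median difference was 0.16 points. Where it was shorter by 1000 bases or more, 8 of 42 were lower and 11 higher (-0.34 points). Where it was longer by at least 200 but under 1000 bases, 42 of 66 were lower and 11 higher (-3.90 points). The genes with a much shorter NR_ isoform thus showed no shift in one direction, in contrast to the other length classes. They also had higher median control shares (36.4% and 27.6%) than the other classes (7.96% to 14.4%). Length and control share were not tested apart.

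The total level of the member genes was past 2-fold less often than their makeup, but the 2 are not measured alike. The minimum of 100 counts in the tRF-3004b library left out genes whose total was low there. Totals also had a median of 225 counts there and the NR_ sums one of 15.8, so the totals are the more precise. Over NM_ and NR_ isoforms together, 22 of the 420 genes were at least 2-fold higher in the tRF-3004b library and 10 at least 2-fold lower, compared with 7.88% and 2.13% of all 3986 genes with 100 counts there. The median log2 ratio of TMM-scaled counts was 0.045 in the scored genes and 0.028 in all of those genes. On gene TPM, the median over all of those genes was -0.30, so TPM levels below are to be read against that shift.

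SR proteins, which bind exonic sequences and promote exon use, had a member in 6 of 14 genes, and all 6 were scored. All 6 had a lower NR_ share in the tRF-3004b library, as did 279 of all 420 scored genes. Of the 6, 3 were past 2-fold lower, 1 of them with the whole counting interval. The median difference was -1.83 points, beside -2.86 over all scored genes. Counts past 2-fold in this list and the next ones are to be read beside 50% lower and 18.6% higher over all scored genes. SRSF6 had the largest difference of the 6 in percentage points. Its isoform with the cassette exon printed above had 2265 counts in the control, beside 4724 for the coding isoform, and 144 beside 697 in the tRF-3004b library. Its share was 31.1% (95% counting interval 30.0% to 32.2%) and 16.3% (13.9% to 18.9%). The coding isoform stood at 124 TPM in the control and 163 TPM in the tRF-3004b library, while the NR_ isoform stood at 56.1 and 31.7 TPM.

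SRSF3 was mostly non-coding by this count in both libraries, with an NR_ share of 91.4% in the control and 86.6% in the tRF-3004b library. Its NR_ isoform is 3600 bases long and its NM_ isoform 4228, and what this length gap does to the share was not tested. Its odds were lower by a log2 of 0.50 to 0.91 (counting interval), short of 2-fold. SRSF10 had 18.3% and 16.9%, a difference inside its counting interval. The other 3 had small shares: SRSF1 1.34% and 0.74%, SRSF2 0.85% and 0, and SRSF11 2.24% and 0. The 0 in SRSF2 allows a share of up to 0.46% and that in SRSF11 of up to 0.50%, counting error only. The total of all 14 SR and TRA2 genes was within 2-fold, with a median log2 ratio of 0.37.

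Among the kinases that phosphorylate SR proteins and spliceosome components, 3 of 7 genes had a member. All 3 were scored, 2 lower and 1 higher past 2-fold, with a median difference of -2.55 points. CLK1, a dual-specificity kinase of SR proteins, differed most. The intron-retaining isoform had 2464 counts in the control and 112 in the tRF-3004b library, a second NR_ isoform (NR_027855) had 255 and 0, and the coding isoform had 419 and 104. In TPM the coding isoform stood at 27.2 in the control and 60.1 in the tRF-3004b library, and the intron-retaining isoform at 88.0 and 35.3. The NR_ share was 79.5% (77.8% to 81.1%) and 37.0% (31.0% to 43.8%), with a log2 odds ratio between -3.14 and -2.28. The gene as a whole had a log2 ratio of -0.37. By estimated counts in place of TPM the NR_ share was 86.7% and 51.7%, so the NR_ isoforms were the smaller part of CLK1 in the tRF-3004b library by TPM and not by counts.

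PRP4K, a kinase of the spliceosome, moved the other way, with an NR_ share of 35.7% in the control and 58.5% in the tRF-3004b library. One of its members, NR_146784, had 728 and 273 counts, and the other, NR_146785, had 545 and 0. The member of SRPK1, an SR protein kinase, made up 2.55% of the control and had no counts in the tRF-3004b library, which allows up to 0.58%. Of the 7 kinase genes, 1 had a total at least 2-fold lower, beside 2.13% of all genes with 100 counts in the tRF-3004b library. This was CLK3, with only 17 counts there.

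The hnRNP proteins, RNA-binding proteins that often act against exon use, had a member in 4 of 23 genes. Of the 3 scored, 2 were lower past 2-fold and the third lay between, with a median difference of -8.90 points. HNRNPDL keeps a cassette exon of 105 bases (chr4:82425563-82425667) in its member NR_003249, which had 3099 counts beside 13720 of the coding isoforms in the control and 73.1 beside 1832 in the tRF-3004b library. Its share was 18.0% and 3.74%, with a log2 odds ratio between -2.86 and -2.16. HNRNPA3 had 1778 member counts in the control and 0.37 in the tRF-3004b library (8.92% and 0.018%). HNRNPA1, the most abundant of them, had 36.4% in the control (35.9% to 36.9%) and 44.3% in the tRF-3004b library (42.5% to 46.0%), a higher share short of 2-fold odds. By estimated counts its share was 15.7% and 20.4%. PTBP2, a neuronal splicing repressor, was too shallow to be scored (37 NR_ and 47 NM_ counts in the tRF-3004b library), with 67.1% and 41.0%.

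Factors of RNA decay gave few members. Of 18 NMD factors, MAGOHB, a core protein of the exon junction complex, had an NR_ share of 21.5% in the control and 18.9% in the tRF-3004b library, inside its counting interval. UPF3A, which links that complex to the decay factors, had 62.8% and 13.99% but only 35 counts in the tRF-3004b library and was not scored. Of 19 genes of the nuclear exosome and its adaptors, EXOSC2 had 16.7% and 6.21% (log2 odds ratio between -2.60 and -0.70), and EXOSC7, not scored, had 7.21% and 6.43%. No NMD factor differed in total by 2-fold, with a median log2 ratio of 0.48. In the exosome list 4 genes were higher by that much and none lower, beside 7.88% and 2.13% of all genes with 100 counts in the tRF-3004b library. Of these, EXOSC4 and EXOSC5 had only 20 and 16 counts there, below that minimum.

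**Figure D4:**
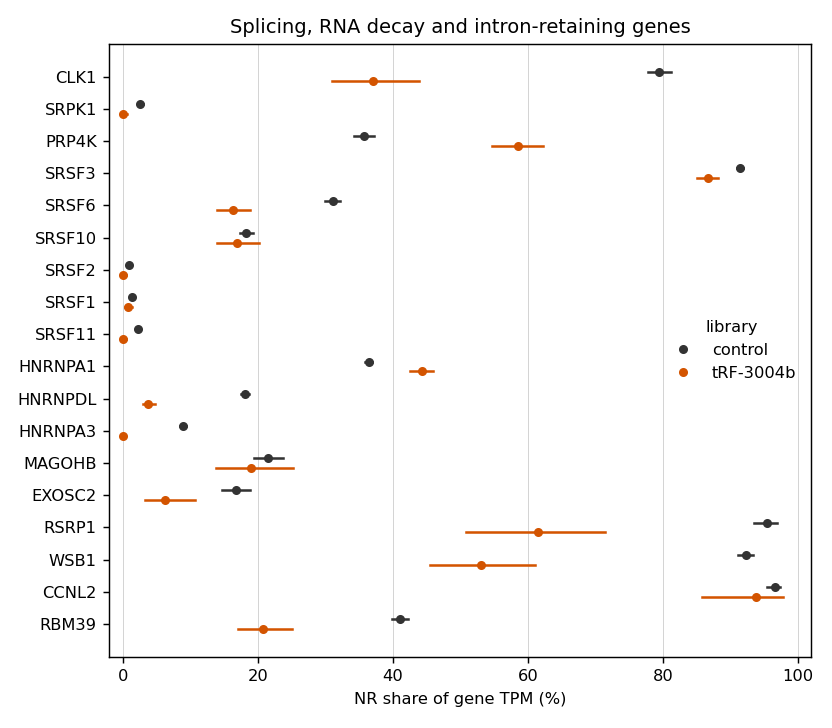
NR_ share of gene TPM (%) in the control library (black) and the tRF-3004b library (orange) for splicing and RNA decay genes and genes with a GENCODE partner of the class retained intron. Points are shares and bars the exact 95% interval for counting error, 1 library each. CLK1, WSB1, RSRP1, RBM39 and SRSF6 lie well to the left in the tRF-3004b library, and PRP4K and HNRNPA1 to the right. Of the genes with a partner of that class, TIAL1, ACAD11 and CIRBP are not shown. RBM39 was added after its values were seen.

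The GENCODE class retained intron was not limited to CLK1, although CLK1 was the only scored gene whose matched structure differed by retained introns alone. In 7 scored genes the GENCODE partner of the leading member had the class retained intron; these 7 were singled out after their values were seen. The share was lower in 6 and higher in 1. The odds were past 2-fold lower in 5 and higher in 1, beside 50% and 18.6% of all scored genes. With the whole counting interval, 3 were lower and 0 higher. In WSB1, a substrate receptor of a ubiquitin ligase, the member had 2804 counts beside 183 in the control and 102.6 beside 71.2 in the tRF-3004b library, or 92.3% and 53.1%. In RSRP1, a protein rich in arginine and serine, the counts were 1228 beside 29.8 and 93.1 beside 28.9, or 95.5% and 61.4%. TIAL1, an RNA-binding protein, had 47.4% and 30.4%, and ACAD11, an acyl-CoA dehydrogenase, 47.3% and 37.0%.

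CCNL2, a cyclin linked to splicing, remained almost wholly non-coding at 96.6% and 93.8%, with only 4.8 coding counts in the tRF-3004b library and an interval that includes equal odds. Its total had a log2 ratio of -1.01. CIRBP, a cold-inducible RNA-binding protein, was the exception, with 6.51% in the control and 15.8% in the tRF-3004b library. In these genes the median share was 79.5% in the control and 37.0% in the tRF-3004b library, and the median log2 ratio of the gene totals was -0.61.

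The matched structures allowed the members to be sorted by how they differ from the coding isoform. Odds and shares in this sorting are those of all NR_ isoforms of a gene together, also where some were not matched. Members that add a cassette exon were found in 26 scored genes, of which 20 were at least 2-fold lower, 4 higher and 2 between, with a median difference of -5.66 points, beside 50% lower, 18.6% higher and -2.86 points over all scored genes. Genes with a member that extends an exon were lower in 5 of 5, with a median share of 15.7% in the control and 0 in the tRF-3004b library. Genes with a member that skips an exon were lower in 9 of 25, higher in 7 and between in 9, with a median difference of -0.16 points. Across all 71 matched genes 44 were lower and 11 higher. Genes whose members carry additional sequence and genes whose members lack an exon hence showed different counts, and this difference has no replicate check. RBM39, a splicing coactivator, was looked up after its values were seen. Its member NR_040722 adds a cassette exon of 73 bases (chr20:35740525-35740597) and held 27.9% of the gene in the control and 3.22% in the tRF-3004b library.

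**Figure D5:**
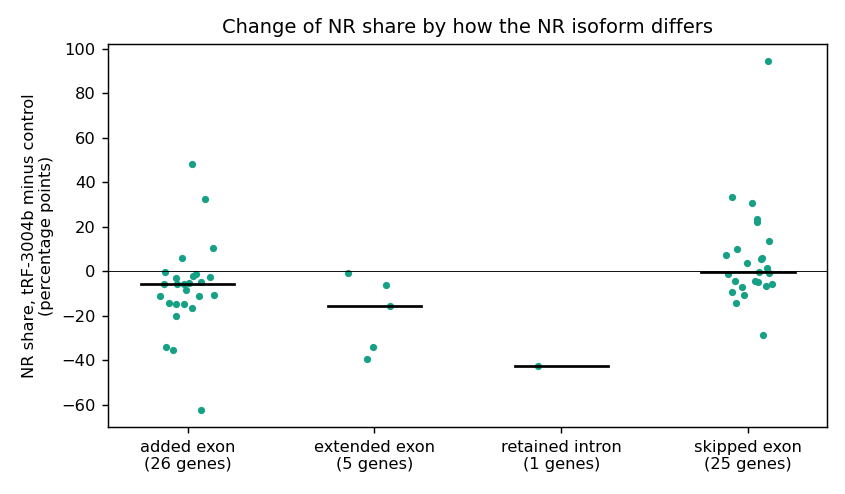
Difference in NR_ share of gene TPM (tRF-3004b minus control, percentage points) for scored genes with a matched structure, grouped by how the NR_ isoform differs from its coding partner; each point is a gene and the black line is the median. The median is -5.66 for an added exon (26 genes) and -0.16 for a skipped exon (25 genes), and the highest point, at 94.3, is SCAMP1.

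In 5 of the 10 largest decreases by percentage points the share in the tRF-3004b library was 0 or nearly so. INTS14, a subunit of the Integrator complex, had 1377 NR_ counts beside 752 NM_ counts in the control and 0.58 beside 193 in the tRF-3004b library, or 62.5% and 0.25%. Most of the control value came from NR_045104, which adds a cassette exon of 284 bases. A coding isoform of nearly the same length (NM_001366360, 2266 bases, beside 2283) had 0.009 counts in the control and 83.8 in the tRF-3004b library. Exchanges between isoforms of similar length were thus also found among the decreases. SVIP, an inhibitor of ER-associated degradation, went from 49.0% to 0 (at most 3.30% by counting error), DENND5A, a Rab regulator, from 39.3% to 0 (at most 3.29%), ATG12, the ubiquitin-like protein of autophagy, from 35.2% to 0 (at most 2.11%) and DMTF1 from 34.2% to 0 (at most 2.49%). In DENND5A the leading coding isoform also had 1185 counts in the control and 0.04 in the tRF-3004b library, while another, NM_001348749, had 20.9 and 111.

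In CLK1, WSB1 and the other 3, at least 1 member was counted in both libraries. UBTF, a transcription factor of RNA polymerase I, had 685 NR_ counts in the control and 23.7 in the tRF-3004b library, with 50.1% and 14.3%. Its coding counts also lay in different isoforms, NM_001076683 with 672 and 0 and NM_014233 with 0 and 146. RBM41 had 41.8% and 6.42%, and of its 3 members only NR_136730 had counts in the tRF-3004b library (121 in the control and 14.4). ITGB3BP, a centromere protein, had 42.9% and 8.67%, and its total had a log2 ratio of 1.20.

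Among the 10 largest increases, several were exchanges between isoforms of nearly the same length. SCAMP1, a membrane protein of the secretory pathway, had 4342 counts of the coding isoform and 257 of the member in the control, and 0 and 265 in the tRF-3004b library. The 2 isoforms differ by a skipped exon of 160 bases (chr5:78421801-78421960) in transcripts of 5983 and 6143 bases, and the share was 5.74% and 100%. In GALNT11, an enzyme of O-glycosylation, the share was 6.37% and 78.3%, but the isoform counted in the tRF-3004b library (NR_163959, 85.8 counts) had 0 counts in the control, where NR_163957 had 93.4. TRPM7, an ion channel with a kinase domain, had 4.33% and 74.2%, over 3 NR_ isoforms of which 2 had no counts in the control. ARL6, a small GTPase of the cilium, had 10.3% and 49.6%, again from another NR_ isoform than in the control. A higher share of a gene therefore did not always mean more of the same isoform.

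In the remaining 6 the share went from 26.8% to 93.3% in DDX55, an RNA helicase, and from 39.3% to 87.4% in CCNT2, a cyclin of the transcription elongation kinase. It went from 12.0% to 55.6% in UROS, an enzyme of haem synthesis, from 2.58% to 45.4% in ELP2, a subunit of Elongator, and from 9.68% to 49.7% in CD55, an inhibitor of complement. SLC4A7, a bicarbonate transporter, had 1745 NR_ and 939 NM_ counts in the control and 172 and 0 in the tRF-3004b library (64.7% and 100%). None of the 10 had a total 2-fold different between the libraries.

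The most abundant members belonged to genes that most cells express strongly, and their shares were estimated from many counts. YWHAE, a 14-3-3 protein, had 21166 NR_ and 17308 NM_ counts in the control and 2086 and 2774 in the tRF-3004b library, or 57.6% and 45.5%. GAPDH, the glycolytic enzyme, had 57.2% and 46.3%, and ACTG1, cytoplasmic gamma actin, 50.5% and 41.7%. MTHFD2, a mitochondrial folate enzyme, had 90.6% and 89.96% while its total had a log2 ratio of -1.39, so both isoforms were lower together. Its NR_ isoform is 2306 bases long and its NM_ isoform 4403. With HNRNPA1, none of these 5 passed 2-fold odds, and MTHFD2 alone of the 5 had an interval that includes equal odds. GAPDH, ACTG1 and HNRNPA1 have processed pseudogenes with near-identical sequence, which makes their counts uncertain. The GENCODE partners of the members of YWHAE, ACTG1 and MTHFD2 have the class protein coding. That of HNRNPA1 has the class nonsense-mediated decay, and the GAPDH member had no partner.

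The highest shares in the control were also high in the tRF-3004b library except in BLOC1S6. MPC2, a subunit of the mitochondrial pyruvate carrier, had 100% in both, with leading NR_ and NM_ isoforms of 2187 and 2154 bases. ACTR6, a chromatin-remodelling protein, had 99.2% and 100%, NTPCR, a nucleoside triphosphatase, 97.1% and 97.6%, and HDAC2, a histone deacetylase, 97.0% in both. The leading NR_ and NM_ isoforms are 1878 and 2491 bases long in ACTR6, 1418 and 6114 in NTPCR, and 6562 and 9737 in HDAC2. What these length gaps do to the shares was not tested. The GENCODE partners of the leading members of MPC2, ACTR6, HDAC2 and BLOC1S6 have the class protein coding, and NTPCR had no partner. Whether these NR_ isoforms are translated was not tested. BLOC1S6, which serves the biogenesis of lysosome-related organelles, had 98.6% and 89.9%, with 37.5 coding counts in the control and 17.5 in the tRF-3004b library. At the other end, PTGES3, a co-chaperone, had 0.23% and 0.28% with 2661 NM_ counts in the tRF-3004b library. CANX, the chaperone calnexin, had 0.18% and 0 (at most 0.16%), and CSE1L, an export receptor, 0.97% and 0 (at most 0.23%).

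Other gene groups held few scored members, to be read beside the 50% lower and 18.6% higher of all scored genes. Of 5 genes for transmembrane (TMEM) proteins, all 5 were lower past 2-fold, but only 2 with the whole counting interval, and in 3 the members had under 0.5 counts in the tRF-3004b library. TMEM209 had 2.76% and 0, and TMEM70 11.1% and 0. Of 5 coiled-coil domain genes 4 were lower, with CCDC66 at 47.7% and 14.3% and CCDC138 at 25.1% and 23.3%. Of 7 zinc finger genes 3 were higher and 1 lower, but none had the whole counting interval beyond 2-fold. ZNF267 stood at 19.3% and 39.6% and ZNF195 at 23.4% and 6.90%. Of 6 mitochondrial ribosomal protein genes 3 were lower and 1 higher, with MRPL11 at 8.69% and 25.1% and MRPS25 at 53.7% and 43.3%.

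Of 5 cytosolic ribosomal protein genes 2 were lower and 1 higher, with RPL37 at 93.3% and 97.2% (by counts 84.6% and 93.1%) and RPS9 at 2.29% and 0. The NR_ isoform of RPL37 is 3083 bases long and its NM_ isoform 7573. Of 6 ubiquitin proteases and conjugating enzymes 2 were lower and 1 higher, with UBE2L3 at 5.38% and 11.4% and USP45 at 23.7% and 6.98%. Of 5 DEAD or DEAH box helicases 3 were lower and 2 higher, with DDX39B at 22.9% and 0.53%. By the GENCODE class of the leading member's partner, 52 of 89 genes were lower and 12 higher for nonsense-mediated decay, and 71 of 148 lower and 29 higher for protein coding. For the class processed transcript, 7 of 27 were lower, 6 higher and 14 between, with a median difference of -0.16 points.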

How the data were processed

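Gene expression was measured in 2 libraries of HEK293T cells, 1 per group. The build was GRCh38 and the quantification tool kallisto 0.46.1, per the submitters' processing notes. The authors deposited, per the file headers, an estimated count, a TPM value, and other values (length and effective length in bases) for each of 70866 RefSeq transcripts. Estimated counts deposited by the authors divide reads among isoforms that share sequence, and the deposited TPM values keep no depth. The annotation release is not given in the sources used here. Totals were 19609933 and 1809193 counts. Intervals cover counting error only (reads had no molecular identifiers and may repeat a molecule).

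Transcripts were named with a RefSeq table (70245) or GENCODE 29 (309), and 312 unnamed ones, under 0.1% of counts, were left out. Counts were rounded to whole numbers for intervals. Shares were computed from TPM, and odds ratios with 0.5 counts added to each side on the TPM scale through mean effective lengths. Their 95% intervals are exact conditional ones, and those of shares are Clopper-Pearson. Gene totals used TMM factors of edgeR 4.0.16 (alternative: size factors of DESeq2 1.42.0) in R 4.3.3. No test was run. The interval method was run on simulated data that held only the counting error it assumes. That simulation had no division of reads among isoforms, so it does not bear on that error.

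Genes were named by a rule: the 10 largest rises and falls of the share whose interval excludes equal odds, the 5 highest NR_ TPM and shares in the control, the 3 deepest genes within 1 point, every member of 5 lists of splicing and RNA decay genes, and the highest and lowest of other lists with 5 scored members. Members and lists were chosen with earlier results of these data known. Alternatives changed the minimum counts, the choice of members, the added counts, the unit of the share and the scaling. The value of 1 blood cell marker is not reported here.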

Additional observations from a re-analysis of the deposited data

How the results depend on the processing

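With 5 counts added to each side, 158 genes were lower past 2-fold and 85 higher, so the excess of lower genes was smaller but kept its direction. With genes left out for members at 0 in the tRF-3004b library, the median difference in share was 0.78 points over 205 genes, with 38 lower and 58 higher. This left out more genes than the 145 whose NR_ isoforms together had under 0.5 counts there. With both leading isoforms counted in both libraries, an alternative chosen after seeing the data, the median difference was 0.79 points over 212 genes, with 39 lower and 57 higher. Both of these leave out genes by their tRF-3004b value, which removes the largest decreases by construction, so neither bears on the direction over all scored genes. With members chosen on the mean CPM of both libraries instead of the control counts, the median was -1.26 points, with 158 of 412 genes lower (38.3%) and 117 higher (28.4%), in place of 50% and 18.6%. With at least 100 or 200 control counts it was -3.94 and -4.46 points, and at 200 counts 45 genes were higher and 93 lower. Scored at 20 counts, 184 genes were higher and 373 lower, and at 50 counts 125 were higher. At 500 counts the median was -0.97 points, with 8 higher and 31 lower. With a length difference of at least 200 bases, also chosen after seeing the data, it was -1.76 points, with 40 higher and 81 lower. By gene TPM the median gene ratio was -0.25 (log2), in place of 0.045. With 5 counts added, the log2 odds ratio turned from -3.11 to 0.095 in CANX, from 2.26 to -0.82 in ACTR6 and from 0.21 to -0.026 in NTPCR. Besides CANX, 16 ratios of named genes moved by more than their counting interval or had none, and 41 did not. The cause of these changes was not tested, except that fewer or more genes enter under other minimums. The share of estimated counts in place of TPM kept the direction in every named gene, but the difference moved in 11, from 3.90 to 8.56 points in RPL37 and from 7.82 to 4.78 in HNRNPA1. No paired analysis was possible because each group has 1 library, and none could be left out. The depth of the tRF-3004b library limits every share near 0, and how kallisto divides reads among similar isoforms adds an error that no interval here covers.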

Other observations

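The rule selects on the control library, so NR_ isoforms found mainly in the tRF-3004b library fall outside it. There were 20 NR_ isoforms, in genes with an NM_ isoform, that had at least 50 counts in the tRF-3004b library and under 50 in the control, in spite of the 10.8-fold lower depth. That of PTTG1IP, a protein that binds the securin PTTG1, had 171 counts in the tRF-3004b library and 0.04 in the control. That of PRPF4, a protein of the spliceosome, had 158 counts and under 0.5 in the control. That of ANKFY1, an endosomal protein, had 119 and 20.7 counts, and that of PI4K2B, a lipid kinase, 109 and 38.8. Isoforms of GALNT11 (85.8 counts), TRPM7 (72.6) and ARL6 (70.2) were among the 20, in genes that also hold a member. No group comparison was made with these isoforms, since their choice used the tRF-3004b counts.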
